A study of Mus musculus with 6 samples.

Results

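Lecticans, tenascins, link proteins and the receptor phosphatase that binds them were examined in 2 cell fractions of the neonatal mouse cerebellum. The members were the 10 genes Acan, Bcan, Ncan, Vcan, Tnc, Tnr, Hapln1, Hapln2, Hapln4 and Ptprz1. All 16 gene probes of the array that carry 1 of these names were used, out of 55681 probes and 31983 gene names. The A+/G+ cells were positive for ACSA-2, an astrocyte surface antigen carried by the protein product of Atp1b2, and for GLAST, the glutamate transporter encoded by Slc1a3. The A-/G+ cells were positive for GLAST alone. Both fractions came from the cerebellum of untreated wild-type mice of either sex, and cerebella were pooled before sorting. The labels name the strain CD1 and ages of postnatal days 1 to 3, whereas the study's methods name another background and the day of birth and the day after. The fractions were separated with magnetic beads, 50000 cells per sample, and 3 biological replicates of each fraction were hybridized to 1 array each. The A+/G+ cells were taken in 1 step with beads against ACSA-2 and were not selected on GLAST. The study counted rare cells with ACSA-2 but without GLAST in this fraction. By its flow cytometry both fractions were enriched but not pure. The A-/G+ cells were taken with beads against GLAST after cells with ACSA-2 and with neuronal, blood and leukocyte antigens had been depleted, so the fractions differed in the number of sorting steps as well as in ACSA-2.

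Lecticans are chondroitin sulfate proteoglycans of the extracellular matrix. Their N-terminal domain binds the polysaccharide hyaluronan, a link protein of the Hapln family holds this bond, and their C-terminal domain binds tenascins, so that the components form a ternary network between cells. In the young brain this matrix is loose and rich in neurocan, versican and tenascin-C, and with age it gives way to one with aggrecan, brevican, tenascin-R and brain link proteins that condenses into perineuronal nets. Ptprz1 encodes a receptor tyrosine phosphatase of glia and their precursors that itself carries chondroitin sulfate and binds tenascins and the growth factor pleiotrophin.

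The question was whether these components differ between the fractions enriched for GLAST+ cells with and without ACSA-2. Ncan was 6.10-fold higher in A+/G+ (n = 3 arrays per fraction), and Hapln1 was also called toward A+/G+, with no signal well above background in A-/G+. Vcan and Tnc were 3.77-fold and 3.58-fold higher in A-/G+. On their brightest probes Bcan and Ptprz1 gave strong signals on every array, higher in A+/G+ without overlap, but were not called. Of all genes well above background on all 6 arrays, 51.9% had no overlap, and a second Bcan probe overlapped between the fractions. Acan, Hapln2 and Hapln4 were not well above background on any array.

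The probes are 60 bases long, and what each one can report depends on where it lies. The 4 shown here are the brightest Vcan probe, both Tnc probes and 1 of the 2 bright Ptprz1 probes. The Vcan and Tnc probes shown were called, and the Ptprz1 probe was not. Each reads open in at least 1 frame, as do other probes that are not printed, the brightest Ptprz1 probe among them. Each is given 5′ to 3′ as on the array, in lower case with no base singled out.
Vcan A_55_P1960208: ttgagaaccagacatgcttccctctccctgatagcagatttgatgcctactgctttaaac
Tnc A_52_P355169: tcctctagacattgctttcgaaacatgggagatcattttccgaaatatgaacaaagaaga
Tnc A_55_P2421597: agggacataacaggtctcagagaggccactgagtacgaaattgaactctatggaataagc
Ptprz1 A_51_P206405: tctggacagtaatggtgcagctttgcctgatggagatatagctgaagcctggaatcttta
The array's annotation places them on mm9. The Vcan probe lies on the minus strand at chr13:89851810-89851869. The first Tnc probe, on the minus strand at chr4:63674248-63675011, spans 764 bases of the genome with 60 bases of sequence and thus joins separate pieces of the gene. The second Tnc probe lies at chr4:63643728-63643787 on the same strand, and the Ptprz1 probe on the plus strand at chr6:23002046-23002106. Of the 16 probes, 2 hold the hexamer AATAAA of a polyadenylation signal, the Ncan probe and Bcan A_55_P1971599. The annotation pairs each probe with a gene and transcript, and exon and intron borders were not used here.

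Signals are given as log2 of the background-corrected intensity after quantile normalization, and differences as A+/G+ minus A-/G+ on the same scale. The level of 1 probe cannot be set against that of another, since probes differ in how well they bind. A probe was called where the adjusted p of limma, with Benjamini-Hochberg adjustment over all probes, was at most 0.05. The study's stricter limits also ask for medians at least 4-fold apart. Unless stated otherwise, they were applied here with limma in place of the study's own test. A gene is represented by its brightest probe, judged by the mean over all arrays. Each fraction was hybridized on a slide of its own, and effects of slide and of fraction cannot be told apart here. The 75th percentile of the intensity was 332 to 334 on the A+/G+ arrays and 56.6 to 251 on the A-/G+ arrays, lowest in A-/G+ replicate 1. Slc1a3 differed by -1.19 (adjusted p = 0.0733, limma) and Atp1b2 by 2.16 (adjusted p = 0.00725, limma), and both were well above background on all 6 arrays.

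Of the 10 genes, 2 were called higher in each fraction, against a background of 6.04% called toward A+/G+ and 5.05% toward A-/G+ among all 31983 gene names. Of the 13013 genes well above background on all 6 arrays, 8.03% were called toward A+/G+ and 10.9% toward A-/G+, while 5 of the 10 members reached that level. With limma, the measured values of 3 of the 10 genes, Ncan, Vcan and Hapln1, were past the study's limits. The share of all genes was 2.53%. With the test of the study's methods 2 member genes were past them, and Vcan was not called. For Hapln1 the size of the difference cannot be read, since its signal in A-/G+ was not well above background. The share of all genes includes such cases. By probe, 2 of 16 were called toward A+/G+ and 3 of 16 toward A-/G+, against 4.65% and 4.64% of all probes. In 6 of the 10 genes the 3 arrays of each fraction did not overlap, as in 39.9% of all genes. The 5 members well above background on all 6 arrays were among these 6, and 51.9% of all genes at that level had no overlap. With 10 genes these shares are counts of a small set, and an exact permutation test of 3 arrays against 3 reaches no p under 0.1 (two-sided).

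**Figure D1:**
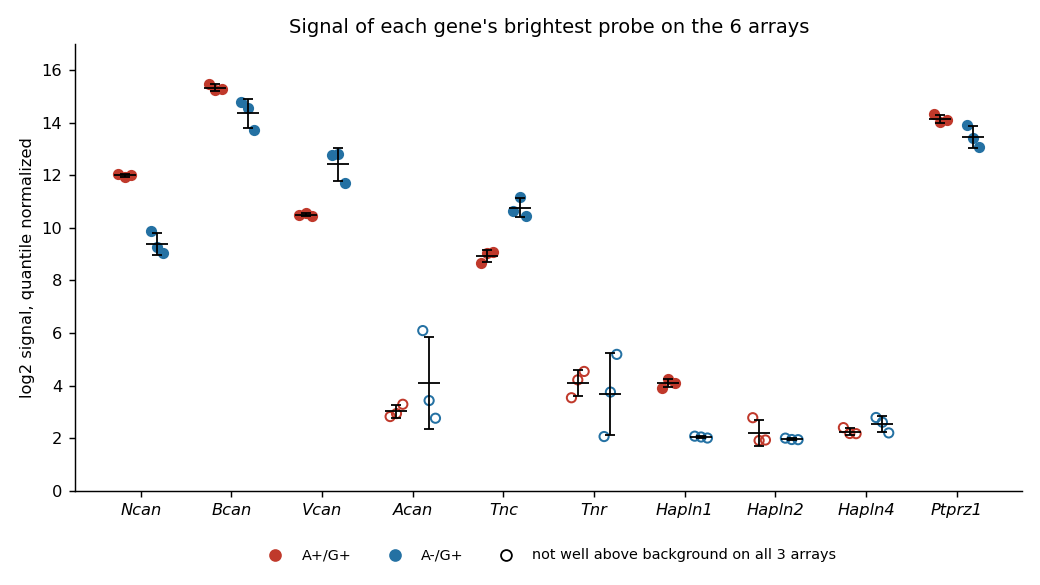
Signal of the brightest probe of each of the 10 genes on the 6 arrays, in log2 units after quantile normalization, with A+/G+ in red and A-/G+ in blue. Bars give the mean and SD of 3 arrays, and open circles mark a fraction in which the probe was not well above background on all 3 arrays. Ncan and Hapln1 sit higher in A+/G+, Vcan and Tnc sit higher in A-/G+, all without overlap, and levels are comparable only within a gene.

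Ncan encodes neurocan, a lectican of the developing nervous system. Its probe, on the minus strand at chr8:72618955-72619014 (mm9), read 12.07, 11.95 and 11.99 in A+/G+ replicates 1, 2 and 3 and 9.87, 9.27 and 9.05 in A-/G+. The A+/G+ arrays lay within a narrow band and all 3 A-/G+ arrays far below it. Ncan was 6.10-fold higher in A+/G+ (difference 2.61 ± 0.23, SE, n = 3 per fraction, adjusted p = 0.00776, limma). The 95% confidence interval of the difference ran from 2.03 to 3.19. Ncan was called with each of the 6 arrays left out in turn, with differences between 2.44 and 2.85.

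Vcan encodes versican, a lectican of early and of growing tissue whose splice forms differ in the chondroitin sulfate region. It has 3 probes, and on each of them the A-/G+ arrays were higher without overlap. The brightest, A_55_P1960208, read 10.48, 10.58 and 10.46 in A+/G+ and 12.77, 12.79 and 11.70 in A-/G+. Replicate 3 of A-/G+ lay between the A+/G+ arrays and the other two A-/G+ arrays. The difference on this probe was -1.91 ± 0.33 (SE, adjusted p = 0.0338, limma), which is 3.77-fold for the means and 4.88-fold for the medians. Probe A_55_P1960202, at chr13:89795080-89795139 and annotated to another transcript, read 10.21, 10.27 and 10.22 in A+/G+ and 11.53, 11.52 and 10.78 in A-/G+. Its difference of -1.04 was not called (adjusted p = 0.06, limma). The dim probe A_52_P1044655, at chr13:89850072-89850131, read 5.04, 4.28 and 5.09 in A+/G+ and 8.34, 7.82 and 6.09 in A-/G+, with a difference of -2.61 that was not called (adjusted p = 0.0812, limma).

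The call of Vcan depended on the arrays used. Without A-/G+ replicate 3 all 3 Vcan probes were called, with differences of -2.28, -3.28 and -1.29 (limma, adjusted p = 0.00362, 0.0145 and 0.00447 for A_55_P1960208, A_52_P1044655 and A_55_P1960202). With any 1 of the other 5 arrays left out, no call remained for A_55_P1960208, and its adjusted p by limma reached 0.129. Its difference stayed between -2.28 and -1.73 over all 6 of these fits.

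**Figure D2:**
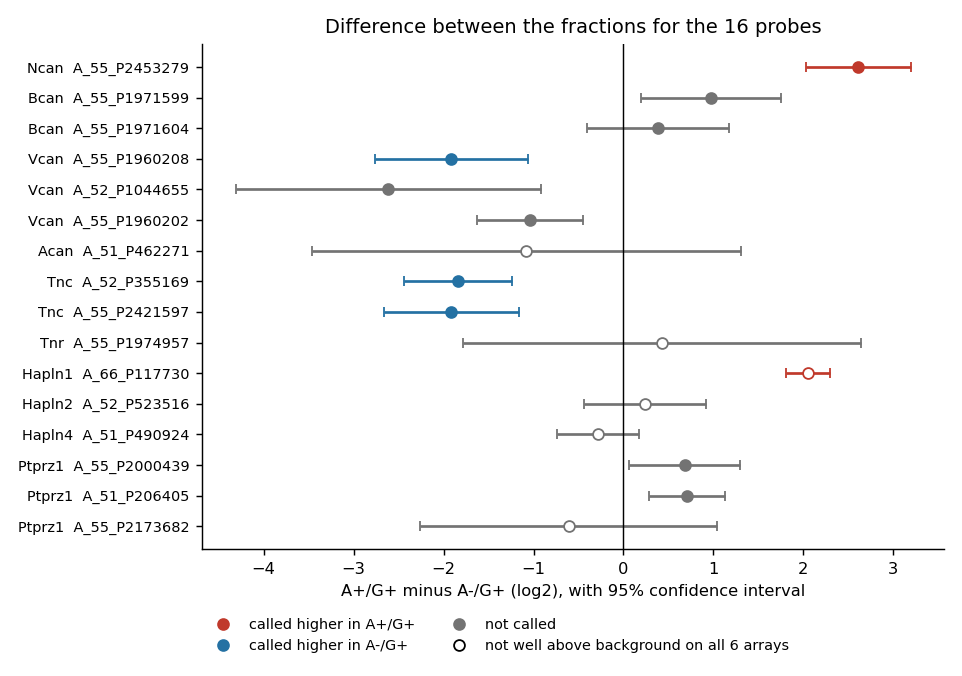
Difference A+/G+ minus A-/G+ (log2) for the 16 probes with its 95% confidence interval from limma, 3 arrays per fraction. Red and blue mark called probes, grey marks probes not called and open circles those not well above background on all 6 arrays. The 3 Vcan and both Tnc probes lie left of 0, and the Ncan, Hapln1 and Bcan probes right of it.

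Tnc encodes tenascin-C, a hexameric glycoprotein of the matrix of neural stem cell niches and immature astroglia. Probe A_52_P355169 read 8.66, 9.04 and 9.08 in A+/G+ and 10.65, 11.18 and 10.47 in A-/G+. Probe A_55_P2421597, which lies in another part of the gene, read 8.97, 8.19 and 8.24 in A+/G+ and 10.53, 10.62 and 9.99 in A-/G+. On both probes the A-/G+ values were higher with no overlap. The differences were -1.84 ± 0.23 (SE, adjusted p = 0.0165, limma) and -1.91 ± 0.29 (SE, adjusted p = 0.0248, limma), or 3.58-fold and 3.76-fold. With limma in place of the study's own test, only the second probe passed the study's limits, since the medians of the first were 3.05-fold apart. With the test of the study's methods the second probe was not called, so neither Tnc probe passed. The call of this second probe, A_55_P2421597, was lost without A+/G+ replicate 2 or 3 and without A-/G+ replicate 1 or 2, with an adjusted p by limma of up to 0.102. Leaving out any 1 of the 3 A+/G+ arrays ended the call of A_52_P355169, with an adjusted p by limma of up to 0.0708, and leaving out any A-/G+ array kept it.

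Tnr encodes tenascin-R, which oligodendrocyte lineage cells and some neurons make in the later brain. Its probe read 3.54, 4.22 and 4.54 in A+/G+ and 2.06, 3.75 and 5.19 in A-/G+. It was well above background on 2 of 3 A+/G+ arrays and 1 of 3 A-/G+ arrays, the fractions overlapped, and the difference of 0.43 had an interval from -1.78 to 2.64 (adjusted p = 0.777, limma).

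Bcan encodes brevican, the lectican most tied to astroglia and oligodendrocyte precursors of the maturing brain. Probe A_55_P1971599, at chr3:87791457-87791516, read 15.48, 15.24 and 15.28 in A+/G+ and 14.80, 14.55 and 13.73 in A-/G+. The fractions did not overlap, and A-/G+ replicate 3 was lowest. The difference was 0.97 ± 0.30 (SE, adjusted p = 0.133, limma). Without A-/G+ replicate 3 it was smaller, 0.65, and was called (adjusted p = 0.0457, limma). Probe A_55_P1971604, at chr3:87796466-87796525 and annotated to the other Bcan transcript, read 10.73, 10.68 and 10.73 in A+/G+ and 10.73, 10.60 and 9.66 in A-/G+. Here the fractions overlapped (difference 0.38, adjusted p = 0.54, limma).

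Ptprz1 had strong signals on 2 neighbouring probes. Probe A_55_P2000439, at chr6:23002114-23002173, read 14.32, 14.03 and 14.09 in A+/G+ and 13.91, 13.42 and 13.06 in A-/G+. Probe A_51_P206405 read 13.93 to 14.12 in A+/G+ and 13.48, 13.48 and 12.98 in A-/G+. On both probes the A+/G+ values were higher without overlap, by 0.68 (adjusted p = 0.173, limma) and 0.70 (adjusted p = 0.0675, limma) on average, and neither was called. Without A-/G+ replicate 3 A_51_P206405 was called, with a difference of 0.54 (adjusted p = 0.0245, limma). The third probe, A_55_P2173682, is annotated to a cDNA clone and was well above background on 1 array only.

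Hapln1 encodes the link protein first found in cartilage, which also joins lecticans to hyaluronan in brain. Its probe, on the plus strand at chr13:89751096-89751155, read 3.92, 4.24 and 4.11 in A+/G+ and 2.07, 2.04 and 2.00 in A-/G+. The scanner software rated it well above background in all 3 A+/G+ replicates and in no A-/G+ replicate, and the measured means differed by 2.05 (SE 0.10, adjusted p = 0.00308, limma). The lowest signals that counted as well above background were 5.64, 4.95 and 4.03 on the A-/G+ arrays, on average above the Hapln1 signal of A+/G+. No fold is therefore given. The difference was 1.04 (adjusted p = 0.134, limma) when arrays were shifted to their 75th percentile instead of quantile normalized, and 0.30 (adjusted p = 0.0224, limma) after normexp background correction.

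The other brain link proteins and aggrecan were not measurable. Hapln2, a link protein of the nodes of Ranvier, read 1.91 to 2.78 in A+/G+ and 1.94 to 2.00 in A-/G+. Hapln4, the link protein of inhibitory synapses in perineuronal nets, read 2.17 to 2.40 and 2.20 to 2.78. Acan, aggrecan of perineuronal nets, read 2.82 to 3.29 in A+/G+ and 6.09, 3.43 and 2.76 in A-/G+ replicates 1, 2 and 3, where the 6.09 came from the array with the lowest intensity. None of these probes was well above background on any array, so their differences were not read.

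Lectican and link protein genes lie side by side in the genome. In the RefSeq gene table of GRCm38.p6, Bcan is next to Hapln2, Ncan next to Hapln4 and Acan next to Hapln3, with no gene between, and 1 gene lies between Vcan and Hapln1. Vcan was called toward A-/G+. Hapln1 was called toward A+/G+, but its A-/G+ signal was not well above background and the call was lost with the shift to the 75th percentile. Ncan was called beside a Hapln4 probe at background, and Hapln3, a link protein of other tissues, was higher in A+/G+ (0.80, adjusted p = 0.0259, limma) beside an Acan probe at background.

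Where a gene had more than 1 measurable probe, the difference between the probes on the same array was compared between the fractions. For Vcan, A_55_P1960208 exceeded A_55_P1960202 by 0.27, 0.31 and 0.23 in A+/G+ and by 1.24, 1.27 and 0.92 in A-/G+. The 2 sets did not overlap (difference of the means -0.87, exact permutation p = 0.1, two-sided, the smallest that 3 against 3 allow). For Bcan, A_55_P1971599 exceeded A_55_P1971604 by 4.75, 4.56 and 4.55 in A+/G+ and by 4.07, 3.95 and 4.08 in A-/G+, again without overlap (0.59, exact permutation p = 0.1, two-sided). The Bcan value was 0.29 with the shift to the 75th percentile. The 2 Tnc probes and the 2 bright Ptprz1 probes overlapped between fractions, with differences of 0.07 and -0.02 (exact permutation p = 1 for both, two-sided). These were 4 of 6 probe pairs compared, and the other two involve the dim Vcan probe.

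**Figure D3:**
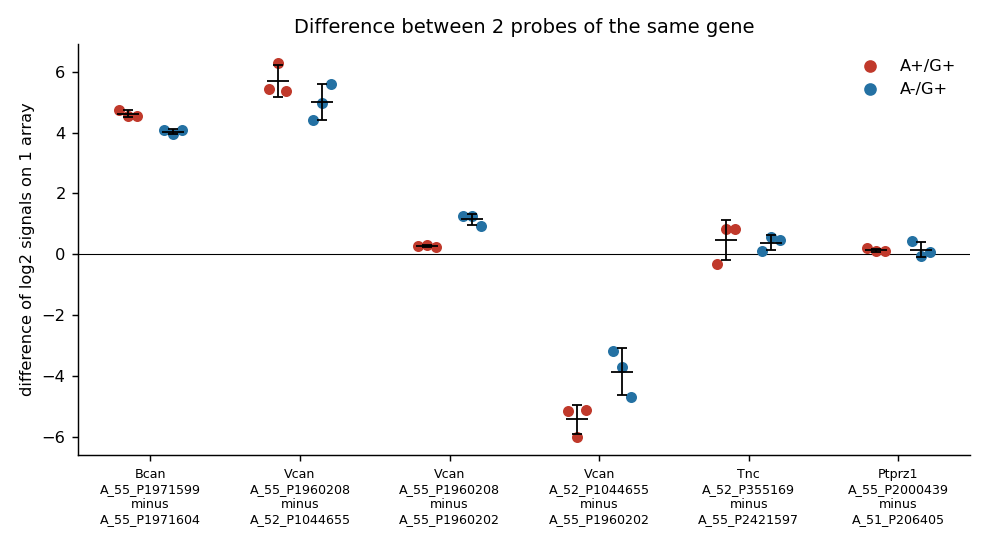
Difference of the log2 signals of 2 probes of the same gene on 1 array, for 6 pairs of measurable probes, with A+/G+ in red and A-/G+ in blue. Bars give the mean and SD of 3 arrays. The Bcan pair and the Vcan pairs with A_55_P1960202 separate the fractions, and the Tnc and Ptprz1 pairs do not.

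Genes that build, decorate, bind or cut these proteoglycans were described by lists. Of 71 genes in 6 lists, 20 were called toward A+/G+ and 6 toward A-/G+, and the median difference of all genes on the array was -0.05. The background for these counts and for those of each list is again 6.04% toward A+/G+ and 5.05% toward A-/G+ of all genes. Of the genes well above background on all 6 arrays, it is 8.03% and 10.9%. At an unadjusted p under 0.05 by limma with all arrays, 5949 of the 55681 probes lay toward A+/G+ and 7025 toward A-/G+. Without 1 of the A+/G+ arrays these were 4752 to 5057 and 5124 to 5411. They are the background for the unadjusted counts of each list. Among 6 relatives of the members, Hapln3 and Cspg5, the brain proteoglycan neuroglycan C (0.98, adjusted p = 0.026, limma), were called higher in A+/G+ and 4 were not called. Without any 1 of the A+/G+ arrays none of the 6 was called, while 3 or 4 still had an unadjusted p under 0.05 toward A+/G+ by limma. Cspg4, the NG2 proteoglycan of oligodendrocyte precursors and pericytes, read 9.20 to 9.64 in A+/G+ and 8.03 to 8.81 in A-/G+ (1.16, adjusted p = 0.0643, limma).

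The list of chondroitin sulfate chain synthesis holds enzymes of the sugar linker and enzymes that start or extend the chains. Of its 12 genes, 5 were called higher in A+/G+ and none higher in A-/G+. All 12 means were above in A+/G+, with a median of 0.45, and 11 of 12 were above with the shift to the 75th percentile and 10 of 12 when a gene's probes were averaged. With the shift to the 75th percentile 1 of the 12 was called, and without 1 of the A+/G+ arrays 2 or 3 were. Csgalnact1, which adds the first N-acetylgalactosamine and so commits a chain to chondroitin, read 9.10, 8.88 and 9.07 in A+/G+ and 5.61, 5.44 and 6.30 in A-/G+. That is a 9.40-fold higher signal in A+/G+ (3.23 ± 0.25, SE, adjusted p = 0.00608, limma). Its probe was well above background on 2 of 3 A-/G+ arrays, the difference ran from 2.21 to 3.49 over the alternatives, and the call held in 14 of 15. Xylt1, a xylosyltransferase that starts the linker, was called (adjusted p = 0.00367, limma) but stayed near background in all A-/G+ replicates and gets no fold. Chsy1, a chain polymerase, and Csgalnact2 differed by 0.73 (adjusted p = 0.0338, limma) and 0.52 (adjusted p = 0.0167, limma), and Chpf2 was also called.

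Enzymes that sulfate the chains or epimerize them to dermatan sulfate were called higher in A+/G+ in 3 of 12 genes and in 0 of 12 higher in A-/G+ (0 also at an unadjusted p under 0.05, limma), with a median of 0.42. The 3 were Dse, the dermatan sulfate epimerase, Chst14, the dermatan 4-O-sulfotransferase (0.72, adjusted p = 0.0447, limma), and Chst15, which makes the doubly sulfated E unit (0.68, adjusted p = 0.041, limma). Dse stayed near background in all A-/G+ replicates (adjusted p = 0.0229, limma) and gets no fold. Their calls were lost without any 1 of the A+/G+ arrays, where 6 or 7 of the 12 genes still had an unadjusted p under 0.05 in A+/G+ direction by limma.

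The hyaluronan list pointed the other way in part. Of 12 genes, 3 were called toward A-/G+ and 1 toward A+/G+, with a median of -0.08. Without any 1 of the A+/G+ arrays none of the 12 was called, while 5 still had an unadjusted p under 0.05 toward A-/G+ by limma, and 1 or 2 toward A+/G+. The median was -0.82 with the shift to the 75th percentile, which moved the median of all probes to -1.02. Cd44, a hyaluronan receptor, read 7.36, 7.15 and 7.29 in A+/G+ and 9.30, 9.47 and 8.34 in A-/G+ (-1.77, adjusted p = 0.0388, limma). Hmmr, a hyaluronan-binding protein of the mitotic spindle, and Hyal1, a hyaluronidase, differed by -0.88 (adjusted p = 0.025, limma) and -0.81 (adjusted p = 0.0143, limma). Ugdh, which makes the UDP-glucuronate used for hyaluronan and chondroitin alike, had the higher signal in A+/G+, by 0.53 (adjusted p = 0.0216, limma). Has2, a hyaluronan synthase, read 5.86 to 5.98 and 4.95 to 5.71 and was not called, and Has1 and Has3 were at background.

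Among 19 ligands, receptors and binding partners, 6 were called toward A+/G+ and 2 toward A-/G+, with a median of 0.42. Without any 1 of the A+/G+ arrays 4 were called toward A+/G+ and none toward A-/G+, where 2 or 3 had an unadjusted p under 0.05 by limma. Scn2b, a sodium channel beta subunit and cell adhesion molecule that binds tenascins, had the larger signal in A+/G+, with a difference of 1.75 (adjusted p = 0.00669, limma). The integrin subunits Itgb3 and Itga8, parts of receptors for tenascins and other matrix proteins, were higher by 2.38 (adjusted p = 0.00313, limma) and 2.24 (adjusted p = 0.0228, limma). Scn2b and Itgb3 were well above background on 2 of 3 A-/G+ arrays. Itga9, another tenascin receptor subunit, differed by -0.43 (adjusted p = 0.0338, limma), and Cntn1, the adhesion molecule contactin bound by Ptprz1, differed by -0.73 (adjusted p = 0.046, limma).

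Ptn, named after its values were seen, encodes pleiotrophin, the ligand of Ptprz1. It read 15.39, 15.51 and 15.28 in A+/G+ and 13.66, 13.50 and 13.90 in A-/G+, a 3.26-fold difference (1.71 ± 0.13, SE, adjusted p = 0.00601, limma). The related ligand midkine, Mdk, read 11.30 to 11.59 in A+/G+ and 11.65 to 12.03 in A-/G+ and was not called (adjusted p = 0.144, limma).

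Of 10 proteases that cut lecticans and their inhibitor, 3 were called toward A+/G+ and 1 toward A-/G+, with a median of 0.83. Without 1 of the A+/G+ arrays 0 or 1 were called toward A+/G+ and 0 toward A-/G+, where 4 or 5 and 1 or 2 had an unadjusted p under 0.05 by limma. Mmp9, a gelatinase, read 7.77, 7.75 and 7.88 in A+/G+ and 2.61, 2.28 and 5.31 in A-/G+, where it was well above background on 1 of 3 arrays (4.40, adjusted p = 0.0454, limma). Its difference ran from 1.93 to 5.36 over the alternatives, and the call held in 7 of 15, so its size is uncertain. Adamts9 and the inhibitor Timp3 exceeded their A-/G+ means by 1.19 (adjusted p = 0.0093, limma) and 0.94 (adjusted p = 0.0123, limma). Adamts5, an aggrecanase that also cuts versican, was higher in A-/G+ together with Vcan, reading 4.61, 4.25 and 4.23 in A+/G+ and 7.05, 7.02 and 5.67 in A-/G+ (-2.21, adjusted p = 0.0436, limma). As with Vcan, A-/G+ replicate 3 was the lowest of its fraction.

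**Figure D4:**
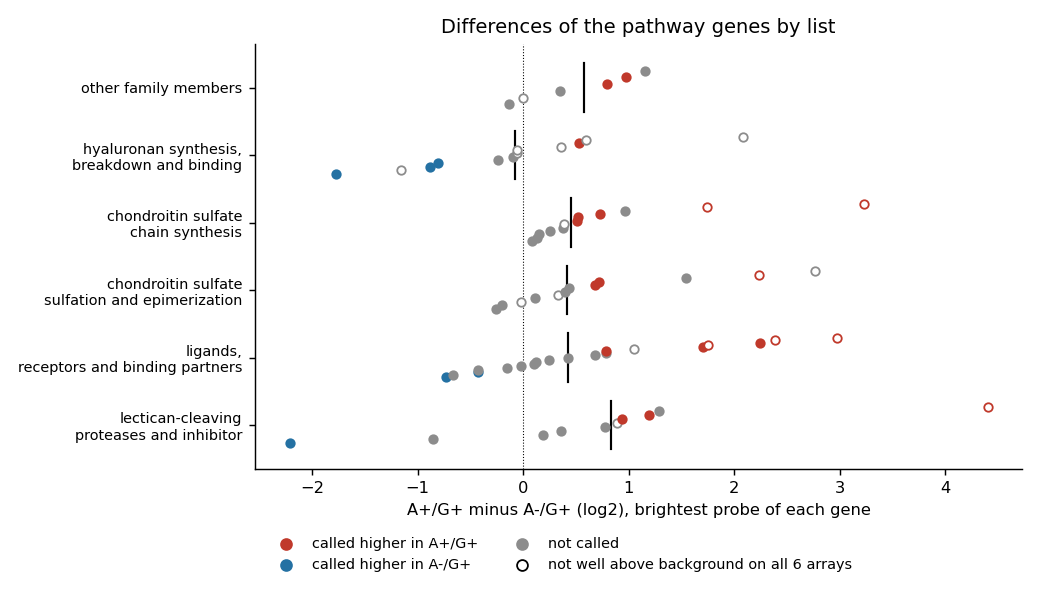
Difference A+/G+ minus A-/G+ (log2) of the brightest probe of each of 71 genes in 6 lists, with the list's median as a black bar. Red and blue mark called genes, grey marks genes not called, and open circles those not well above background on all 6 arrays. All 12 genes of chondroitin sulfate chain synthesis lie right of 0, 1 of them not well above background on any array. In the hyaluronan list 3 of the 4 called genes lie left of 0.

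Markers of several cell types also differed between the fractions, in both directions. The background for the counts of these lists is again 6.04% toward A+/G+ and 5.05% toward A-/G+ of all genes. Among genes well above background on all 6 arrays it is 8.03% and 10.9%. The summed signals add probes that differ in how well they bind, so the brightest probes weigh most. They are set only against the same sum in the other fraction and do not measure amounts of cells. The Bergmann glia list was called higher in A-/G+ in 5 of 5 genes, with a summed linear signal of 15711 to 23893 against 4075 to 4905 in A+/G+. From the same arrays, the study had already reported Gria1, Gdf10 and Wif1 of this list as A-/G+ genes. The list for oligodendrocyte precursors, cells that make several lecticans and Ptprz1, was called higher in A+/G+ in 3 of 6 genes, with a summed signal of 13953 to 17292 against 1895 to 4535. Its genes Olig1 and Olig2 differed by 4.43 (adjusted p = 0.00417, limma) and 4.23 (adjusted p = 0.00389, limma), and Sox10 and Gpr17 overlapped between the fractions, with A-/G+ replicate 3 reading as high as A+/G+. The Purkinje cell list was called higher in A+/G+ in 5 of 6 genes, with a summed signal of 3544 to 10828 against 395 to 558, and the defining markers Calb1 and Car8 had only background signal in all A-/G+ replicates. Of the meningeal fibroblast list 2 of 5 genes, of the mural list 2 of 4 and of the motile cilia list 4 of 4 were called higher in A+/G+. The summed signals of these lists were 64317 to 77732 against 11493 to 34230, 1969 to 2178 against 351 to 746, and 3928 to 6413 against 372 to 1021. In the list for GABAergic interneuron precursors 2 of 4 genes were called toward A+/G+, with a summed signal of 1211 to 2197 against 170 to 340. The endothelial list had 1 of 5 called in that direction and all 5 means above, with sums of 6762 to 10084 against 1259 to 6920 that overlapped in part. The granule neuron lineage list had sums of 17119 to 20002 in A+/G+ against 24278 to 30702. Of its 6 genes 1 was called toward A-/G+, while 4 means were above in A+/G+. Of the oligodendrocyte list 1 of 6 was called toward A-/G+. In the pan-neuronal and microglia lists none was called, and in the astroglia list 3 of 10 were called toward A+/G+ and 1 toward A-/G+. The astroglia list holds Atp1b2 and Slc1a3, the genes of the antigens used for sorting. Atp1b2 is among the genes called toward A+/G+, a difference that the sort itself selects for. The part of these cells in the differences of the lecticans and their partners was not tested. In such sorted populations, more cells of a type and more RNA per cell cannot be told apart.

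**Figure D5:**
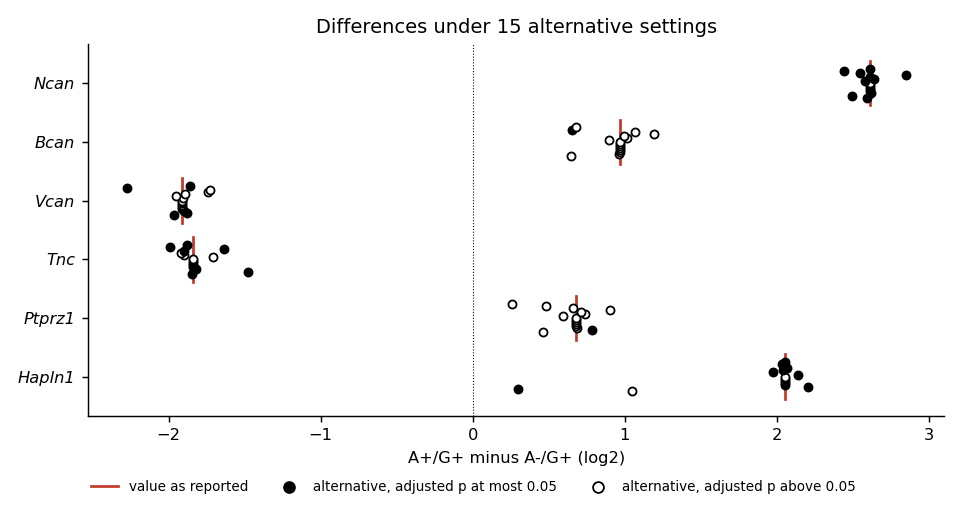
Difference A+/G+ minus A-/G+ (log2) of the brightest probe of 6 genes, as reported (red line) and under 15 alternative settings (circles). Filled circles have an adjusted p of at most 0.05. Every circle of Ncan, Bcan, Ptprz1 and Hapln1 lies right of 0 and every circle of Vcan and Tnc left of it, and Ncan is the gene with the most filled circles.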

How the data were processed

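The authors deposited the scanner output of 6 one-color arrays, in which Agilent Feature Extraction 10.7.3.1 gives each spot an intensity after background correction, and a table of quantile normalized log2 values that was used as an alternative. RNA from magnetically sorted cells had been amplified and labeled with Cy3. Here, control spots were dropped, outlier spots were set to missing, log2 intensities were quantile normalized, spots of 1 probe were averaged, and the fractions were compared over 55681 probes with limma 3.58.1 in R 4.3.3, with Benjamini-Hochberg adjustment. No dim probes were removed. Names and mm9 positions were taken from the annotation in the scanner output. Named are all 10 members with all probes and, per list, up to 4 called genes in each direction with the largest differences. Ptn, Cspg4, Chpf2, Has2 and Mdk were named after their values had been seen. A called gene of 1 list is not reported here. Members and lists were chosen with earlier results of these data known. The fits were tested on simulated data with the same spread in both fractions. In the measured data the A-/G+ arrays varied more than the A+/G+ arrays, and that test does not cover unequal spread. Alternatives were another scaling, normexp with an offset of 50, the deposited table, a filter on dim probes, kept outlier spots, the methods' t-test, trend and robust variance, a replicate block, the mean of all probes, and each array left out. A slide block could not be fitted. The number of arrays limits the precision.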

Additional observations from a re-analysis of the deposited data

How the results depend on the processing

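Ncan, Bcan A_55_P1971599, Hapln1 and the 2 bright Ptprz1 probes stayed higher in A+/G+, and Tnc and Vcan in A-/G+, under every alternative run. Of 230 differences of member probes recomputed, 192 kept direction and side of the threshold, 12 crossed to a call, 20 lost it and 6 turned sign.

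With the shift to the 75th percentile the median difference over all probes was -1.02, and 31.6% of all calls were higher in A+/G+ instead of 50.1%. The calls were then 1 member probe and 1 member gene higher in A+/G+, Ncan, and 8 pathway genes in the same direction and 3 in the other. Tnr turned to -0.35 and Hapln2 to -1.25, and the difference between the Bcan probes was 0.29. After normexp correction 4 member probes were called higher in A+/G+, Tnr was at -4.33e-04, and the Vcan pairs with the dim probe A_52_P1044655 gave -0.39 against A_55_P1960208 and -0.47 against A_55_P1960202, where 0.70 and -1.57 had been measured. The filter on dim probes left 25738 probes, 3205 of them called toward A+/G+ and 3386 toward A-/G+, and 5 member probes were called higher in A-/G+. With the methods' t-test 1 member probe and 1 member gene, Tnc, were called higher in A-/G+, and 12 and 1 pathway genes toward A+/G+ and A-/G+, while 1351 and 1197 of all probes were called.

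The deviations of same-numbered samples from their fraction means had correlations of 0.20, 0.11 and -0.11 over probes well above background. Those of differently numbered samples ran from -0.24 to 0.17. With 3 arrays per fraction, whose deviations sum to 0, these values cannot show whether the numbers pair the samples. With the replicate number as a replicate block limma called 0 probes, 0 member genes and 0 pathway genes in either direction. In each direction 5 member probes had an unadjusted p under 0.05, the same counts as without it. Of all 55681 probes, 5354 toward A+/G+ and 6317 toward A-/G+ had such a p with the block, and 5949 and 7025 without it.

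Leaving out 1 array at a time gave 2 to 4 member probes higher in A+/G+, 0 to 5 higher in A-/G+, 0 to 2 member genes higher in A-/G+, 1 to 3 genes past the study's limits, and 6 to 26 and 0 to 10 pathway genes higher in A+/G+ and A-/G+. The counts were lowest without an A+/G+ array (816 to 1021 and 404 to 577 of all probes called higher in A+/G+ and A-/G+, against 2589 and 2583 with all arrays) and highest without A-/G+ replicate 3 (4437 and 4578). Where no member probe was called higher in A-/G+, 5 still had an unadjusted p under 0.05 by limma. In those fits, without A+/G+ replicate 2 or 3, 5223 and 5124 of all 55681 probes had such a p toward A-/G+. Of the dim probes 3 turned sign when an array was left out, from -0.37 to 1.19 for Tnr, -0.044 to 0.39 for Hapln2 and -1.11 to 0.034 for Ptprz1 A_55_P2173682, while Acan (-1.75 to -0.079) and Hapln4 (-0.45 to -0.15), at background on every array, did not. The cause of these changes was not tested. Fewer probes reached the scanner software's mark in A-/G+, 18340 to 24730 against 26476 to 26655, which limits what can be read for dim members.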
